A study of Mus musculus with 12 samples.

Results

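Liver RNA of mice that had drunk 3-phenylpropionic acid (PPA) was compared with that of mice on plain water, in both cases 6 h after an overdose of acetaminophen (APAP). The comparison covered 3 libraries of the group PPA_6h (replicates 1, 2 and 5) and 3 of the group CTL_6h (replicates 2, 3 and 4), out of 12 libraries in the series. All mice were C57BL/6 from Taconic. The PPA_6h mice had PPA in their water for 4 weeks and the CTL_6h mice had normal water. Both groups were then fasted for 16 h and injected intraperitoneally with APAP at 300 mg/kg, so that no 6 h library was free of APAP or of the fast. The remaining 6 libraries form the groups CTL_0h and PPA_0h, with the same drinking regimens, the same 16 h fast and livers taken at 0 h. For these samples too the labels list APAP at 300 mg/kg, without stating whether the 0 h mice had received it. The labels give neither the age, sex or caging of the mice nor the concentration of PPA, nor whether any mouse gave more than 1 library. The p-values therefore describe the spread between samples, which may be technical. Values are FPKM, that is, sequenced fragments divided by transcript length in kilobases and by library size. Of 24340 rows of the table, 10086 reached 1 FPKM in at least 3 of the 12 libraries, and 10084 of these were tested. Alb and Apoe were left out: the 6 h libraries each hold Alb at 0, and Apoe at 0 in all of CTL_6h but between 29427 and 33033 FPKM in PPA_6h, although both are abundant liver transcripts.

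PPA is an aromatic acid that gut bacteria make from phenylalanine and dietary phenols, and mammalian liver shortens it to benzoic acid, which is excreted as the glycine conjugate hippuric acid. APAP is oxidised by liver cytochromes P450, mainly Cyp2e1, to a reactive quinone imine that uses up glutathione, binds mitochondrial proteins and kills hepatocytes around the central veins. A fasted liver burns fatty acids through genes driven by the nuclear receptor PPAR-alpha, and an injured liver switches on immediate early, heat shock and acute phase genes.

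The 6 h libraries were close to each other and did not separate cleanly by group. Correlations of log2(FPKM + 1) ran from 0.973 to 0.988 within the groups and from 0.964 to 0.987 between them. On the first principal component, which held 45.9% of the variance among the 6, the libraries lay at -28.7 (CTL_6h_4), -23.1 (CTL_6h_2), 0.483 (PPA_6h_5), 6.91 (CTL_6h_3), 18.02 (PPA_6h_1) and 26.4 (PPA_6h_2). CTL_6h_3 and PPA_6h_5 were thus neighbours in the middle. From the steps between low values of long genes, of which 74.4 to 85% in each library lay within 0.15 of a whole number of fragments, 6800000 to 9840000 fragments were estimated for each 6 h library and 3170000 to 4870000 for each 0 h library, so depth and time cannot be told apart. CTL_6h_4 alone carried skeletal muscle transcripts. The sum of 21 muscle genes was 173 FPKM in that library against 4.80 to 8.20 FPKM in the other 5, and Tnnt3, a fast muscle troponin, read 20.8 FPKM there, 0.143 FPKM in PPA_6h_5 and 0 in the other four. Hepatocyte transcripts were abundant in every 6 h library. Of 16 hepatocyte genes, 15 were in the table. Their sum was 79887 to 109721 FPKM in CTL_6h and 67803 to 84201 FPKM in PPA_6h. Apart from Alb, 14 were tested, with a median log2 difference of 0.01.

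Of the 10084 rows tested, 1 was higher (0.00992%) and 3 were lower (0.0298%) in PPA_6h at an adjusted p under 0.05. The gene that rose was Serpina9, and those that fell were Slc27a1, Rnaset2a and Fst. A further 10 genes had an adjusted p of 0.0506 to 0.0600, and all 14 passed once 41 rows of short non-coding RNAs were left out of the adjustment (6 higher and 8 lower). In 662 rows (6.56%) all PPA_6h values lay above all CTL_6h values, and in 865 rows (8.58%) all lay below. The median log2 difference over all rows was -0.02, and 54.0% of the rows had a negative sign. With the spread estimated from the 6 h libraries alone, no gene was called by limma (unadjusted p under 0.05 for 495 higher and 616 lower), and the 4 genes had adjusted p-values of 0.105 to 0.116. With the replicate number as a block, none of the 4 passed (adjusted p = 0.0903 to 0.111). The calls also moved with single libraries: 320 genes were higher and 470 lower without CTL_6h_3, and 118 higher and 246 lower without PPA_6h_5, against at most 2 higher and 3 lower without any of the other 4.

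**Figure D1:**
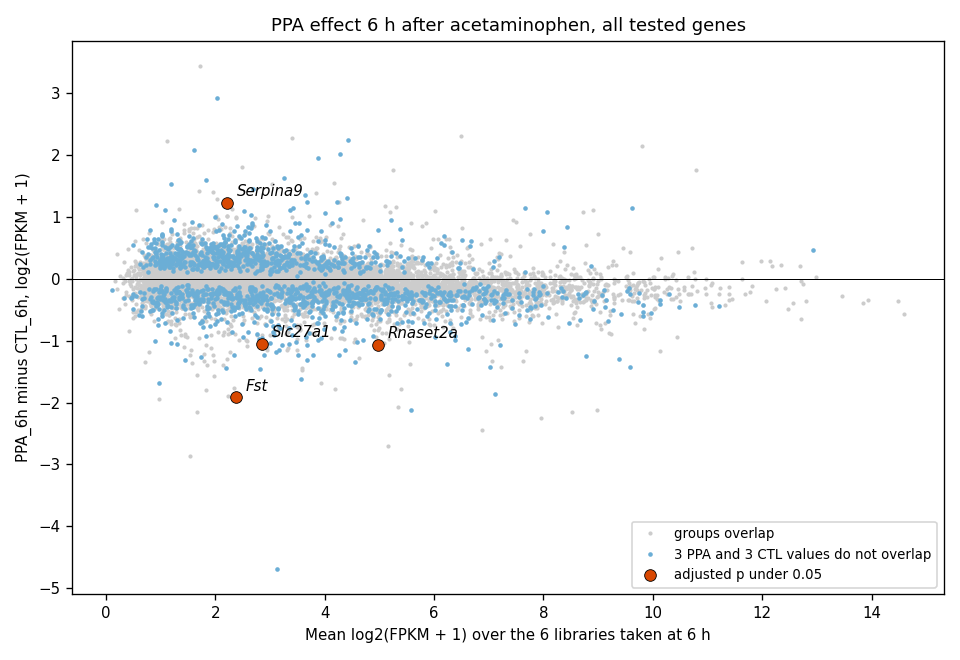
Mean level over the 6 libraries taken at 6 h (x axis, log2(FPKM + 1)) against the difference PPA_6h minus CTL_6h (y axis, log2 scale) for all tested genes. The 4 called genes, orange, lie at differences of -1.92 (Fst) to 1.22 (Serpina9), and blue points are the 662 and 865 rows whose groups did not overlap.

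Slc27a1 encodes a fatty acid transport protein (FATP1) that brings long-chain fatty acids into cells and activates them. It lies on chromosome 8 (71568882 to 71587302, plus strand, GRCm38, the assembly also called mm10). In the order of replicates 2, 3 and 4 it read 9.83, 8.70 and 9.56 FPKM in CTL_6h, and in the order of replicates 1, 2 and 5 it read 4.02, 3.44 and 4.67 FPKM in PPA_6h; this order is kept throughout. Both groups were tight and did not overlap. The difference was -1.04 (SE 0.12, adjusted p = 0.00799) on the log2 scale. At 0 h it read 21.0, 19.8 and 21.9 FPKM in CTL_0h and 19.9, 24.5 and 22.3 FPKM in PPA_0h, where the groups overlapped, so levels at 6 h were lower than at 0 h with and without PPA. The interaction of PPA and time was -1.12 (SE 0.17, unadjusted p = 2.22e-05, adjusted p = 0.105), which did not pass over all rows. Rnaset2a, which encodes a T2-family ribonuclease of lysosomes and secretions, lies on chromosome 17 (8115445 to 8148097, minus strand). It read 39.4, 41.1 and 54.1 FPKM in CTL_6h and 21.5, 19.0 and 21.5 FPKM in PPA_6h, a difference of -1.07 (SE 0.13, adjusted p = 0.00799), and the groups did not overlap. It read 32.8, 36.0 and 39.7 FPKM in CTL_0h and 26.8, 29.5 and 26.7 FPKM in PPA_0h, again without overlap, with a 0 h difference of -0.37 (SE 0.13, adjusted p = 0.637). Without PPA_6h_2 the adjusted p of Rnaset2a was 0.0520. Rnaset2a has a near-identical copy, Rnaset2b, among which the authors' counting could have split reads, so its value is uncertain. Rnaset2b read 40.4, 31.9 and 40.9 FPKM in CTL_6h and 31.6, 45.4 and 35.8 FPKM in PPA_6h, with overlapping groups and a difference of -0.01 (SE 0.27, adjusted p = 0.986).

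Fst encodes follistatin, a secreted protein that binds and blocks activins, and lies on chromosome 13 (114452290 to 114458951, minus strand). It read 11.4, 7.09 and 9.16 FPKM in CTL_6h and 2.30, 1.09 and 1.75 FPKM in PPA_6h. All PPA libraries lay below all controls. The difference of -1.92 (SE 0.27, adjusted p = 0.0242) is the largest of the called genes, and a mean of 9.23 FPKM stood against one of 1.71 FPKM. At 0 h Fst was at 0.766, 1.66 and 0.368 FPKM in CTL_0h and 1.31, 0.424 and 0.851 FPKM in PPA_0h. Estimated fragments behind its 6 h values ran from 28 to 287 per library, against 404 to 993 for Rnaset2a, so the values of Fst rest on fewer fragments. Without CTL_6h_2, CTL_6h_4 or PPA_6h_2 its adjusted p was 0.137, 0.133 and 0.102, and with a pseudocount of 0.1 or no filter it was 0.112 and 0.0916. Serpina9 encodes a serine protease inhibitor of the alpha-1-antitrypsin family, known in humans from germinal centre B cells, and lies on chromosome 12 (103994743 to 104013755, minus strand). At 0 h each library held it at 0, and at 6 h it read 1.58, 2.59 and 1.95 FPKM in CTL_6h and 5.93, 5.33 and 6.95 FPKM in PPA_6h. The groups did not overlap, and the difference was 1.22 (SE 0.14, adjusted p = 0.00799). This SE and p pool the spread of all 12 libraries, and the 0 h libraries, all at 0, add none. With the spread from the 6 h libraries alone, the adjusted p of Serpina9 by limma was 0.116. The adjusted p of Serpina9 was 0.135 with a pseudocount of 0.1 and 0.106 with a filter of 5 FPKM in 3 libraries. B cell markers were near 0 in the same libraries: none of 5 such genes reached 1 FPKM in a 6 h library, and their sum was 0.501 to 0.864 FPKM in CTL_6h and 0.836 to 1.12 FPKM in PPA_6h.

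**Figure D2:**
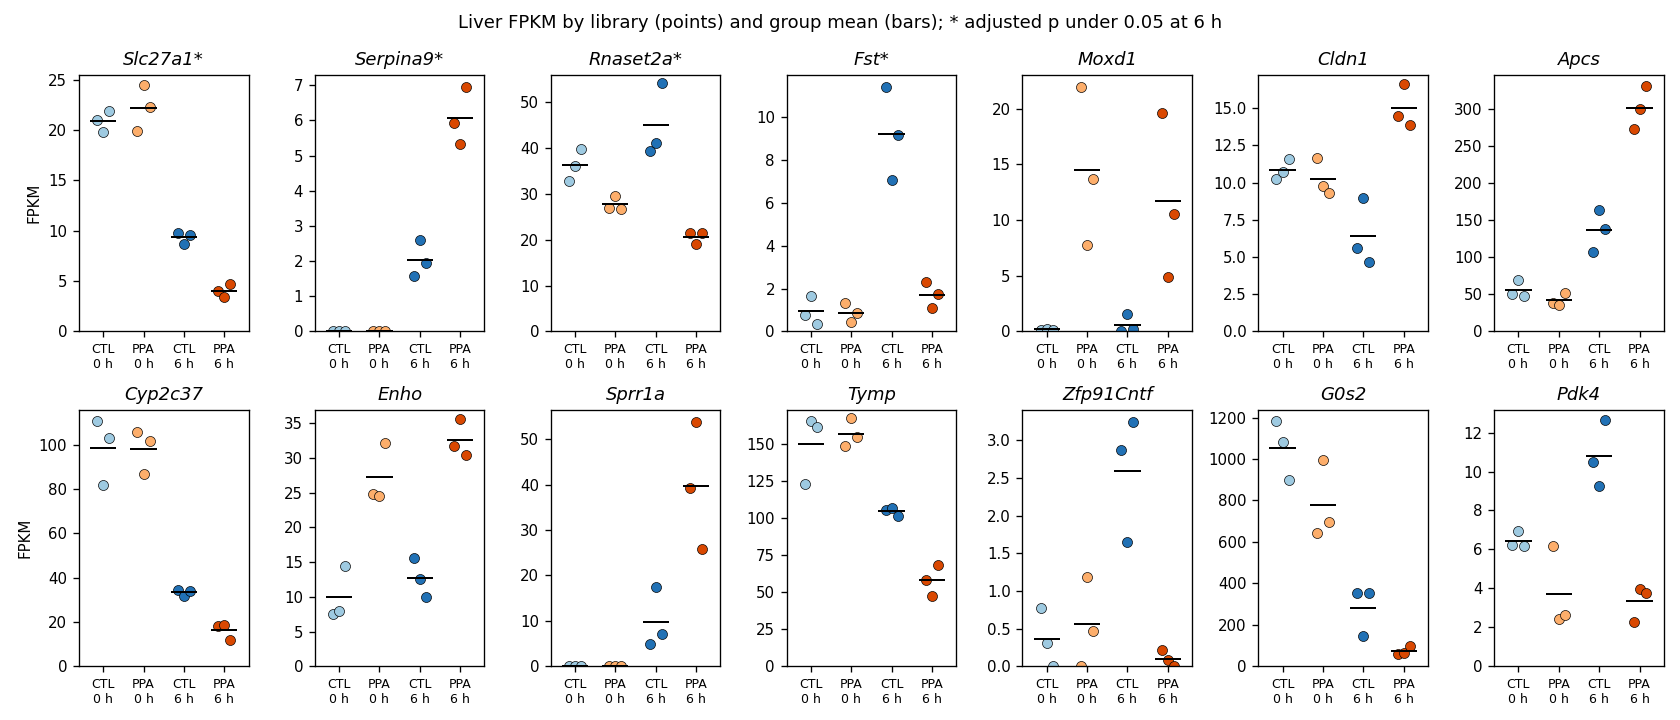
FPKM in every library (points) and group means (bars) for the 14 genes with the smallest p at 6 h, in order of p; asterisks mark the 4 with an adjusted p under 0.05. Slc27a1, Cyp2c37 and Tymp are lower at 6 h than at 0 h in both arms, Serpina9 and Sprr1a are at 0 in every 0 h library, and Moxd1 and Enho are already apart at 0 h.

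Among the 10 genes just outside the threshold, 5 had a positive sign. Apcs, which encodes serum amyloid P, an acute phase pentraxin, read 108, 163 and 138 FPKM in CTL_6h and 273, 300.5 and 331 FPKM in PPA_6h, a difference of 1.15 (SE 0.19, adjusted p = 0.0537). Its groups did not overlap, while at 0 h it read 51.0, 70.0 and 48.1 FPKM in CTL_0h and 38.7, 36.0 and 51.4 FPKM in PPA_0h, where the fitted sign was negative and the groups overlapped (log2 difference -0.41, adjusted p = 0.728). Sprr1a, a cornified envelope precursor that is also induced in stressed cells, was at 0 in every 0 h library and read 4.99, 17.5 and 6.99 FPKM in CTL_6h and 39.3, 53.9 and 25.9 FPKM in PPA_6h. Sprr1a had a log2 difference of 2.02 (SE 0.34, adjusted p = 0.0537), with an SE that also pools the 0 h libraries at 0, which have no spread. All PPA values of Sprr1a lay above the highest control, CTL_6h_3. Cldn1, which builds tight junctions, read 5.61, 8.99 and 4.67 FPKM in CTL_6h and 14.4, 16.6 and 13.9 FPKM in PPA_6h (log2 difference 1.14, SE 0.18, adjusted p = 0.0518), against means of 10.8 and 10.2 FPKM at 0 h. The control mean was below and the PPA mean above both 0 h means. Moxd1, a copper monooxygenase-like protein of the endoplasmic reticulum, and Enho, which encodes the secreted peptide adropin, were already apart at 0 h. Moxd1 read 0.157, 0.260 and 0.101 FPKM in CTL_0h and 22.0, 7.76 and 13.7 FPKM in PPA_0h, and at 6 h 0.0758, 1.56 and 0.188 FPKM in CTL_6h and 19.6, 4.93 and 10.5 FPKM in PPA_6h (log2 difference 2.92, SE 0.45, adjusted p = 0.0506); its 0 h difference of 3.61 passed the test (adjusted p = 0.0144). Enho read 7.5030, 7.95 and 14.4 FPKM in CTL_0h and 24.9, 24.5 and 32.2 FPKM in PPA_0h, and at 6 h 15.6, 12.6 and 9.96 FPKM in CTL_6h and 31.7, 35.6 and 30.4 FPKM in PPA_6h. Enho had a log2 difference of 1.31 (SE 0.22, adjusted p = 0.0537). PPA libraries were the higher ones at both times for both genes, and the interactions were -0.70 (SE 0.63) and -0.10 (SE 0.31).

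The other 5 had a negative sign. G0s2, a small protein that blocks the fat-splitting lipase Pnpla2, read 353, 144 and 351 FPKM in CTL_6h and 58.0, 64.3 and 98.3 FPKM in PPA_6h (log2 difference -1.86, SE 0.32, adjusted p = 0.0537), and the nearest control to the PPA libraries was CTL_6h_3. Pdk4, a kinase that shuts pyruvate out of oxidation during fasting, read 10.5, 9.25 and 12.7 FPKM in CTL_6h and 2.27, 3.99 and 3.75 FPKM in PPA_6h. Pdk4 had a log2 difference of -1.46 (SE 0.25, adjusted p = 0.0600). Tymp, thymidine phosphorylase, read 105, 107 and 101 FPKM in CTL_6h and 58.0, 47.6 and 68.2 FPKM in PPA_6h. Tymp had a log2 difference of -0.85 (SE 0.14, adjusted p = 0.0537). None of the 3 had overlapping groups. Cyp2c37, a P450 of pericentral hepatocytes, read 34.6, 31.6 and 33.7 FPKM in CTL_6h and 18.1, 18.6 and 11.8 FPKM in PPA_6h (log2 difference -1.03, SE 0.17, adjusted p = 0.0537), from means of 98.6 and 98.1 FPKM at 0 h. Zfp91Cntf, listed as the joint row of neighbouring genes Zfp91 and Cntf that overlap, read 2.88, 1.65 and 3.25 FPKM in CTL_6h and 0.216, 0.0760 and 0 FPKM in PPA_6h (log2 difference -1.69, SE 0.29, adjusted p = 0.0537); reads of such a row can be split with its parts, so it is uncertain. Further genes with non-overlapping groups and the smallest p were higher in PPA_6h in the case of Slc3a1 (a subunit of the cystine transporter, 0.77), Cks1b (a cyclin-dependent kinase subunit, 1.35), Inhba (the activin A chain, 1.60), Cyp2c70 (the mouse hydroxylase that makes muricholic acids, 0.96) and Gmppb (GDP-mannose synthesis, 1.25). They were lower in the case of 4931408D14Rik (-0.95), Calcoco1 (a selective autophagy receptor, -0.75), Mfsd2a (a lysophospholipid transporter, -2.12), Zfp36l1 (an mRNA decay factor, -0.94) and Arid5a (a stabiliser of inflammatory mRNAs, -1.24). Their adjusted p-values were 0.0668 to 0.101, and none passed. Inhba and Fst lay on opposite sides: the activin chain read 0.562, 2.07 and 0.794 FPKM in CTL_6h and 5.13, 7.82 and 3.44 FPKM in PPA_6h, and its antagonist read the higher in the group where the chain read the lower.

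**Figure D3:**
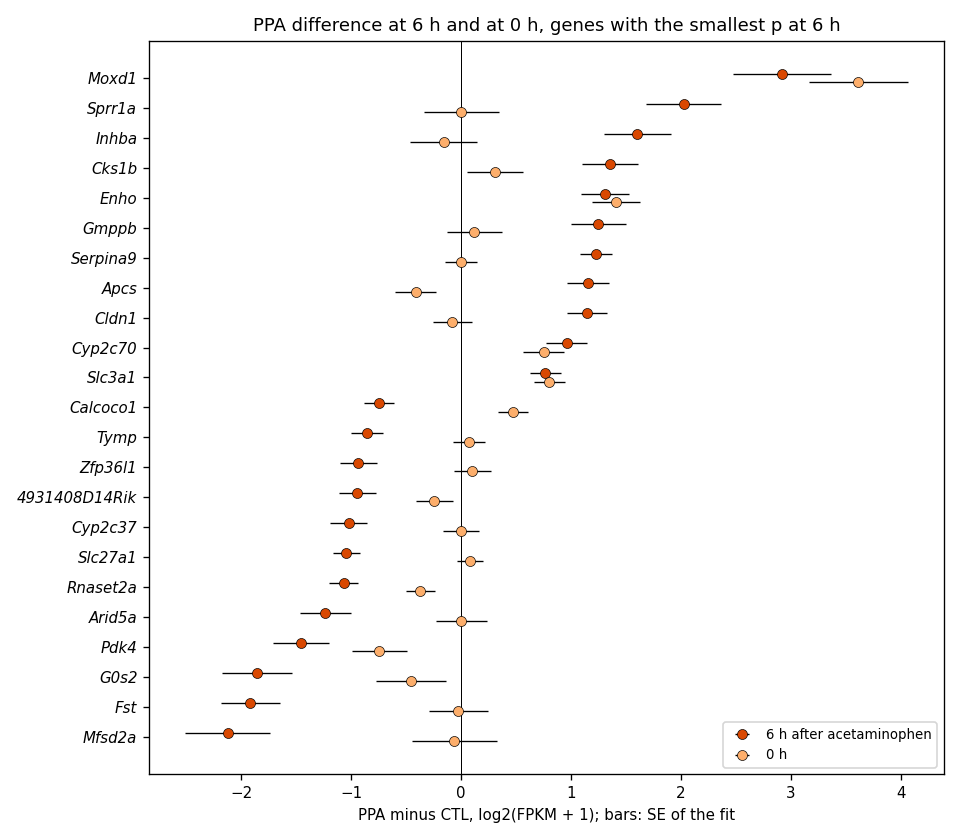
Log2 difference PPA minus control at 6 h (dark points) and at 0 h (light points), with the SE of the fit, for genes named by smallest p and non-overlapping groups at 6 h. Moxd1, Enho, Slc3a1 and Cyp2c70 lie at similar positive values at both times, whereas the 0 h points of Slc27a1, Fst, Cyp2c37 and Mfsd2a lie near 0.

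The lists of function described next were tested only gene by gene. Percentages beside list counts are shares of a list's tested members. Over all rows, 6.56% lay above and 8.58% below the controls without overlap, and 54.0% were negative. Fst was the called gene of 1 of the 30 lists, and the other 29 held none, so the lists are described by values. Genes of fatty acid oxidation and other PPAR-alpha targets were nearly all lower in sign: 57 of 58 tested members were negative, with a median log2 difference of -0.60, and 15 (25.9%) did not overlap, against 8.58% of all rows. At an unadjusted p under 0.05, 47 members were lower and 0 were higher, where 8.77% of all rows were lower and 6.03% higher. The libraries were not alike. In PPA_6h_1, 54 members lay below every control, in PPA_6h_2 56 did, and in PPA_6h_5 17 did, with medians of -0.88, -0.88 and -0.08 from the control mean. Without PPA_6h_5, 45 members were called lower, against 2.44% of all rows, and without CTL_6h_3, 9 were, against 4.66%. These libraries were the neighbours in the middle of the first principal component. Leaving out CTL_6h_2, CTL_6h_4, PPA_6h_1 or PPA_6h_2 instead, 0 members were called. Acsl1, which activates long-chain fatty acids, read 193, 216 and 229 FPKM in CTL_6h and 68.1, 80.6 and 184 FPKM in PPA_6h. Acsl1 had a log2 difference of -1.07 (SE 0.27, adjusted p = 0.157). Cyp4a10, an omega-hydroxylase and a classical PPAR-alpha target with close relatives, read 742, 619 and 678 FPKM in CTL_6h and 181, 219 and 574 FPKM in PPA_6h. Cyp4a10 had a log2 difference of -1.25 (SE 0.33, adjusted p = 0.167). In both, PPA_6h_5 sat just under the controls and the other PPA libraries far below. Slc25a20, the mitochondrial carnitine carrier, read 121, 116 and 129 FPKM in CTL_6h and 61.6, 62.3 and 109 FPKM in PPA_6h. Slc25a20 had a log2 difference of -0.69 (SE 0.18, adjusted p = 0.161). Angptl4, a secreted lipase inhibitor, read 196, 135 and 249 FPKM in CTL_6h and 81.1, 62.1 and 144 FPKM in PPA_6h (log2 difference -1.05, SE 0.27, adjusted p = 0.159), with PPA_6h_5 above the lowest control. Fitm2, which helps fat droplets form, had PPA libraries close to each other, at 16.6, 21.3 and 15.8 FPKM in CTL_6h and 9.48, 9.94 and 11.9 FPKM in PPA_6h. Fitm2 had a log2 difference of -0.72 (SE 0.17, adjusted p = 0.135). The most abundant members were Fabp1, the liver fatty acid-binding protein, and Acaa1b, a peroxisomal thiolase. Fabp1 read 7531, 6884 and 11433 FPKM in CTL_6h and 3428, 3741 and 12146 FPKM in PPA_6h and Acaa1b 1775, 1139 and 2366 FPKM in CTL_6h and 402, 504 and 2064 FPKM in PPA_6h; for both the PPA_6h_5 value lay above at least 2 controls, and neither difference passed (-0.64 and -1.17, adjusted p = 0.474 and 0.293). Acadm, the medium-chain dehydrogenase, read 238, 201 and 227 FPKM in CTL_6h and 119, 139 and 229 FPKM in PPA_6h (log2 difference -0.50, SE 0.20, adjusted p = 0.277), with PPA_6h_5 again among the controls. The receptor gene Ppara read 7.5043, 11.8 and 8.88 FPKM in CTL_6h and 8.31, 13.2 and 9.24 FPKM in PPA_6h, with overlapping groups.

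**Figure D4:**
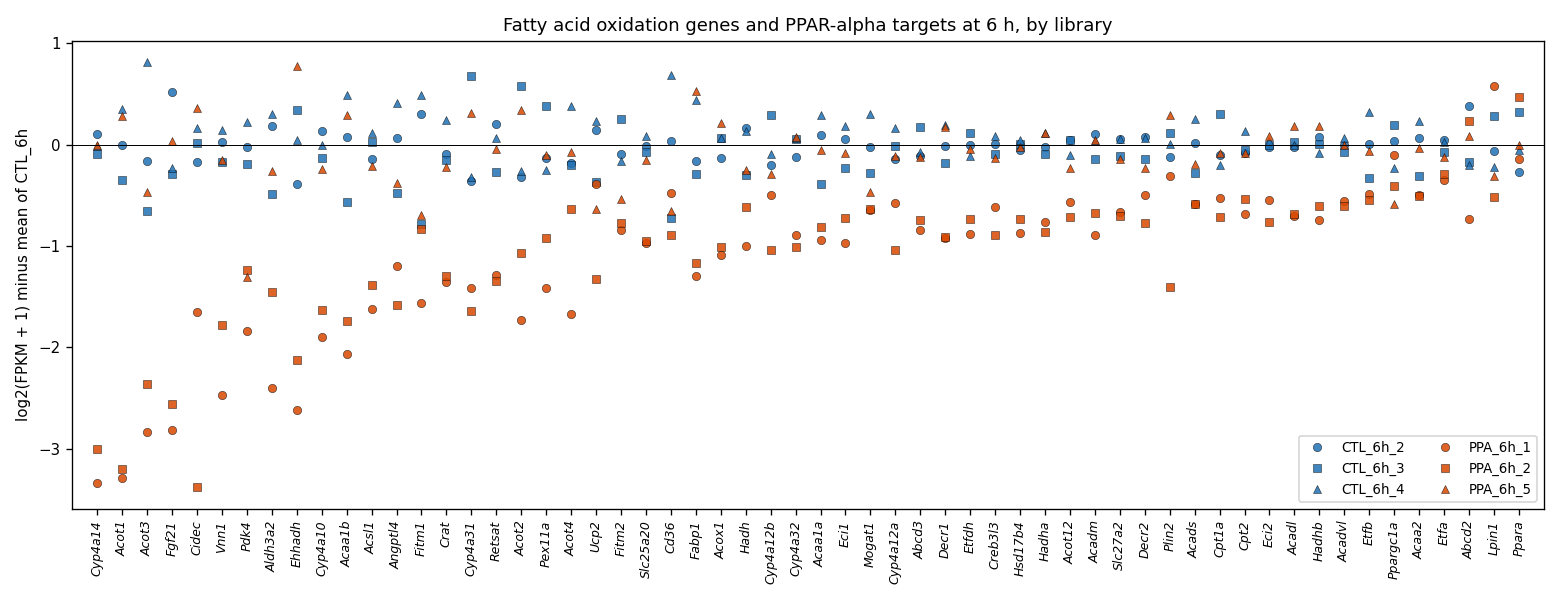
Log2(FPKM + 1) minus the mean of the CTL_6h libraries (y axis) for each of the 58 tested genes of fatty acid oxidation and PPAR-alpha targets, ordered by their mean difference, with 1 symbol per library. PPA_6h_1 and PPA_6h_2 lie below all controls for 54 and 56 genes, and PPA_6h_5 lies among the controls for most of them.

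Ketone body genes were also negative. All 8 tested members were negative (median -0.42), against 54.0% of all rows. In 3 of them (37.5%) the groups did not overlap, against 8.58% of all rows. Slc16a6, known in zebrafish as a ketone body exporter, read 32.8, 8.53 and 23.4 FPKM in CTL_6h and 5.13, 3.73 and 12.3 FPKM in PPA_6h, with CTL_6h_3 below PPA_6h_5 (log2 difference -1.45, SE 0.42, adjusted p = 0.185). Lipid droplet genes had a median of -0.72 over 15 members, 6 of them (40.0%) below and 1 (6.67%) above the controls without overlap. Cideb, which enlarges droplets and loads very-low-density lipoprotein, read 249.8, 208 and 288 FPKM in CTL_6h and 170.0, 162 and 194 FPKM in PPA_6h (log2 difference -0.50, SE 0.13, adjusted p = 0.161). The droplet coat protein Plin5 read 103, 118 and 132 FPKM in CTL_6h and 50.7, 42.1 and 92.4 FPKM in PPA_6h. Plin5 had a log2 difference of -0.99 (SE 0.27, adjusted p = 0.181). All PPA libraries were below all controls for both genes. Plin4 differed by -0.78 (SE 0.21, adjusted p = 0.169). Plin2, the most abundant droplet coat protein of the list, read 1138, 1345 and 1247 FPKM in CTL_6h and 1001, 468 and 1515 FPKM in PPA_6h (log2 difference -0.48, SE 0.33, adjusted p = 0.509), with PPA_6h_5 the highest library. Of genes for fatty acid and triglyceride synthesis, 21 tested members had a median log2 difference of -0.34. Without overlap, 1 (4.76%) lay above and 4 (19.0%) below the controls. Lpin2, a phosphatidate phosphatase, read 79.8, 56.9 and 79.9 FPKM in CTL_6h and 44.0, 32.8 and 56.1 FPKM in PPA_6h (log2 difference -0.71, SE 0.18, adjusted p = 0.159). Fads2, the delta-6 desaturase, differed by -0.73 (SE 0.26, adjusted p = 0.247). Acacb, which makes the malonyl-CoA that blocks the transfer of fatty acids to carnitine, differed by -0.74 (SE 0.21, adjusted p = 0.181). None of the 3 passed.

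Of cholesterol genes, 29 tested members had a median log2 difference of -0.07 (0.06 without CTL_6h_2, 0.11 without CTL_6h_3, -0.33 without CTL_6h_4, -0.32 without PPA_6h_1 and 0.08 without PPA_6h_2). Without overlap, 0 lay above and 1 (3.45%) below the controls, against 6.56% and 8.58% of all rows. Within the bile acid list, 26 tested members had a median log2 difference of -0.07 (0.02 without CTL_6h_2, -0.18 without CTL_6h_3, 0.01 without PPA_6h_1, -0.18 without PPA_6h_2 and -0.02 without PPA_6h_5). The list had 1 member (3.85%) non-overlapping above and 4 (15.4%) below the controls. Its extremes pointed in opposite directions: Cyp8b1, the 12-alpha-hydroxylase that makes cholic acid, read 222, 211 and 254 FPKM in CTL_6h and 140.3, 113 and 161 FPKM in PPA_6h (log2 difference -0.74, SE 0.14, adjusted p = 0.0692), and Cyp2c70 read 19.7, 25.7 and 32.6 FPKM in CTL_6h and 50.3, 48.0 and 53.3 FPKM in PPA_6h. Cyp2c70 had a log2 difference of 0.96 (SE 0.19, adjusted p = 0.0828). Neither overlapped. At 0 h the Cyp2c70 groups did not overlap either, with a difference of 0.75 (SE 0.19, adjusted p = 0.415), which did not pass. The exporters Abcc3 and Abcb4 differed by -0.70 and -0.65 (adjusted p = 0.159 for Abcc3 and 0.159 for Abcb4), both without overlap. In glucose handling, 27 tested members had a median log2 difference of -0.36. Non-overlapping were 1 (3.7%) above and 7 (25.9%) below the controls. Pck1, the rate-setting enzyme of gluconeogenesis, read 1045, 1246 and 1066 FPKM in CTL_6h and 769, 786 and 652 FPKM in PPA_6h (log2 difference -0.61, SE 0.13, adjusted p = 0.109), and G6pc, which releases free glucose, read 111, 126 and 106 FPKM in CTL_6h and 75.1, 38.6 and 73.4 FPKM in PPA_6h. G6pc had a log2 difference of -0.92 (SE 0.24, adjusted p = 0.159). Ppp1r3c, which brings a phosphatase to glycogen, lay the other way, at 9.54, 17.2 and 6.20 FPKM in CTL_6h and 22.7, 26.9 and 18.3 FPKM in PPA_6h. Ppp1r3c had a log2 difference of 1.07 (SE 0.28, adjusted p = 0.169). The groups of all 3 were apart. Of genes of amino acid breakdown and the urea cycle, 51 tested members had a median log2 difference of -0.22. Non-overlapping were 0 above and 8 (15.7%) below the controls. Got1, the cytosolic aspartate aminotransferase, differed by -0.64 (SE 0.18, adjusted p = 0.181), Sds, serine dehydratase, by -0.71 (SE 0.23, adjusted p = 0.215), and Bhmt, which remethylates homocysteine, by -0.44 (SE 0.15, adjusted p = 0.237). Tat, tyrosine aminotransferase, read 1105, 1336 and 866 FPKM in CTL_6h and 854, 595 and 829 FPKM in PPA_6h (log2 difference -0.53, SE 0.19, adjusted p = 0.249), without overlap. Glul, the pericentral glutamine synthetase, read 33.7, 43.1 and 23.9 FPKM in CTL_6h and 27.3, 17.1 and 21.5 FPKM in PPA_6h, against a mean of 364 FPKM in CTL_0h. Slc1a2, a pericentral glutamate carrier, read 0.823, 1.44 and 0.211 FPKM in CTL_6h and 0.256, 0.141 and 0.0227 FPKM in PPA_6h, against 39.1 FPKM in CTL_0h. The 6 h groups of both overlapped.

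The list closest to the handling of PPA itself held genes that conjugate acids to glycine or activate medium-chain acids. Its 13 tested members had a median log2 difference of -0.07 (-0.14 without CTL_6h_2, -0.04 without CTL_6h_3, 0.04 without PPA_6h_1 and -0.17 without PPA_6h_2). Without overlap, 0 lay above and 3 (23.1%) below the controls, against 6.56% and 8.58% of all rows. Acsf2, an acyl-CoA synthetase, read 42.3, 45.2 and 39.4 FPKM in CTL_6h and 29.1, 25.6 and 29.7 FPKM in PPA_6h (log2 difference -0.57, SE 0.13, adjusted p = 0.135), and Gm4952, a member of the glycine N-acyltransferase family, read 43.1, 35.1 and 40.3 FPKM in CTL_6h and 11.3, 22.8 and 32.7 FPKM in PPA_6h. Gm4952 had a log2 difference of -0.92 (SE 0.27, adjusted p = 0.186). Acss3, a mitochondrial short-chain synthetase, differed by -1.04 (SE 0.29, adjusted p = 0.181). All 3 were apart between the groups and none passed. Genes that oxidise, conjugate or export APAP had both signs (18 positive and 22 negative): 40 tested members had a median log2 difference of -0.06 (-0.02 without CTL_6h_2, -0.11 without CTL_6h_3, 0.01 without CTL_6h_4, 0.01 without PPA_6h_1 and 0.07 without PPA_6h_5). Without overlap, 1 (2.5%) lay above and 3 (7.5%) below the controls, which is under the 6.56% and 8.58% of all rows. Cyp2e1 read 3261, 1840.1 and 2708 FPKM in CTL_6h and 1639, 2080.3 and 1850.5 FPKM in PPA_6h, so that CTL_6h_3 stood within the PPA range (log2 difference -0.45, SE 0.19, adjusted p = 0.299). Cyp1a2 read 101, 75.5 and 101 FPKM in CTL_6h and 140.4, 131 and 80.8 FPKM in PPA_6h (log2 difference 0.32, SE 0.21, adjusted p = 0.493) and Cyp3a11 1593, 1212 and 929 FPKM in CTL_6h and 1011, 883 and 378 FPKM in PPA_6h (log2 difference -0.80, SE 0.30, adjusted p = 0.267), both with overlap. Por, the reductase that feeds electrons to all microsomal P450s, read 452, 434 and 464 FPKM in CTL_6h and 318, 189 and 346 FPKM in PPA_6h (log2 difference -0.71, SE 0.20, adjusted p = 0.181), without overlap. Gstp2, a glutathione transferase near-identical to Gstp1, read 1.83, 3.94 and 3.38 FPKM in CTL_6h and 8.93, 7.04 and 6.59 FPKM in PPA_6h (log2 difference 1.10, SE 0.29, adjusted p = 0.169), while the abundant Gstp1 differed by 0.27 (SE 0.15, adjusted p = 0.421); reads may be shared between the pair. Among targets of the drug receptors CAR and PXR, 34 tested members had a median log2 difference of -0.31 (-0.50 without CTL_6h_3). Non-overlapping were 0 above and 4 (11.8%) below the controls, and 31 (91.2%) were negative, against 54.0% of all rows. Beside Cyp2c37, Cyp2c38 differed by -1.31 (SE 0.33, adjusted p = 0.157) and Nr1i2, the PXR gene, by -0.74 (SE 0.19, adjusted p = 0.159). Of NRF2 targets and glutathione genes, 39 tested members had a median log2 difference of -0.12 (-0.07 without CTL_6h_2). Non-overlapping were 0 above and 1 (2.56%) below the controls. Hmox1, haem oxygenase, read 743, 531 and 863 FPKM in CTL_6h and 376, 277 and 609.8 FPKM in PPA_6h (log2 difference -0.81, SE 0.27, adjusted p = 0.219), Gclc, the rate-limiting enzyme of glutathione synthesis, 256, 449.7 and 197 FPKM in CTL_6h and 419.5, 372 and 362 FPKM in PPA_6h (log2 difference 0.44, SE 0.24, adjusted p = 0.429), and Nqo1, a quinone reductase, 4.11, 8.68 and 5.76 FPKM in CTL_6h and 8.16, 6.32 and 6.43 FPKM in PPA_6h. Nqo1 had a log2 difference of 0.19 (SE 0.21, adjusted p = 0.689). All 3 overlapped. Mgst1, a membrane-bound glutathione transferase, differed by -0.13 (SE 0.18, adjusted p = 0.765). Gstm3 split within its group, at 11.4, 17.8 and 7.27 FPKM in CTL_6h and 50.6, 47.6 and 9.11 FPKM in PPA_6h, with PPA_6h_5 at the control level.

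Immediate early and AP-1 genes, the first transcripts made after injury, were almost all negative: 38 of 39 members, with a median of -0.51 and 11 (28.2%) below the controls without overlap, against 8.58% of all rows. At an unadjusted p under 0.05, 18 were lower and 1 was higher, against the 8.77% and 6.03% of all rows. The same genes had a 0 h median of 0.14. Zfp36l1 read 109, 81.8 and 78.1 FPKM in CTL_6h and 39.3, 49.0 and 50.1 FPKM in PPA_6h (log2 difference -0.94, SE 0.17, adjusted p = 0.0692). The AP-1 subunit Fosl2 read 11.9, 8.20 and 9.74 FPKM in CTL_6h and 5.37, 4.82 and 6.12 FPKM in PPA_6h (log2 difference -0.76, SE 0.16, adjusted p = 0.109). Another AP-1 subunit, Jund, read 365, 280.2 and 365 FPKM in CTL_6h and 226, 188 and 247 FPKM in PPA_6h. Jund had a log2 difference of -0.61 (SE 0.14, adjusted p = 0.135). All PPA libraries were below all controls for these 3. Dusp8, a MAP kinase phosphatase, read 9.22, 8.42 and 9.41 FPKM in CTL_6h and 2.66, 3.47 and 7.43 FPKM in PPA_6h. Dusp8 had a log2 difference of -0.95 (SE 0.23, adjusted p = 0.146). Gdf15, a stress hormone that curbs food intake, was spread widely, at 866, 171 and 1054 FPKM in CTL_6h and 88.2, 65.7 and 246 FPKM in PPA_6h (log2 difference -2.25, SE 0.63, adjusted p = 0.181), with CTL_6h_3 below PPA_6h_5. Atf3, a stress-induced repressor, read 432, 513 and 446 FPKM in CTL_6h and 397, 464 and 503 FPKM in PPA_6h and differed by -0.03 (SE 0.18, adjusted p = 0.955). The abundant Ier2, an immediate early nuclear protein, and Jun, an AP-1 subunit, overlapped, with differences of -0.88 (SE 0.40, adjusted p = 0.336) and -0.05 (SE 0.23, adjusted p = 0.944). Without CTL_6h_3, 16 members of the list were called lower, against 4.66% of all rows, and without PPA_6h_5 8 were, against 2.44%. Leaving out CTL_6h_2, CTL_6h_4, PPA_6h_1 or PPA_6h_2 instead, 0 members were called. Cytoskeletal, YAP-target and injured-cell genes had a median of -0.25 (-0.40 without CTL_6h_3 and -0.09 without CTL_6h_4) over 42 members. They had both signs (14 positive and 28 negative). Of them, 1 (2.38%) lay above and 3 (7.14%) below the controls without overlap, under the 6.56% and 8.58% of all rows. Cyr61, a target of the growth regulator YAP, read 169, 92.1 and 190.2 FPKM in CTL_6h and 64.7, 52.2 and 82.0 FPKM in PPA_6h (log2 difference -1.13, SE 0.27, adjusted p = 0.141). Amotl2, another YAP target, read 23.2, 17.989 and 19.2 FPKM in CTL_6h and 10.1, 10.8 and 12.1 FPKM in PPA_6h (log2 difference -0.81, SE 0.18, adjusted p = 0.134). Neither overlapped. Hbegf, an epidermal growth factor receptor ligand, and Plaur, the urokinase receptor, read above 6 FPKM in CTL_6h_2 and CTL_6h_4: Hbegf read 7.08, 1.45 and 6.48 FPKM in CTL_6h and 1.12, 1.06 and 1.70 FPKM in PPA_6h and Plaur 6.13, 0.992 and 6.48 FPKM in CTL_6h and 0.584, 0.685 and 1.37 FPKM in PPA_6h. The p53 and cell death list had a median of -0.35 (-0.17 without PPA_6h_2) over 20 members. In this list 1 member (5.0%) lay above and 1 (5.0%) below the controls without overlap, under the 6.56% and 8.58% of all rows. The member below, pro-apoptotic Bbc3, read 28.7, 18.8 and 31.4 FPKM in CTL_6h and 12.4, 14.2 and 15.3 FPKM in PPA_6h (log2 difference -0.84, SE 0.20, adjusted p = 0.135). The cell cycle brake Cdkn1a read 257, 138 and 229 FPKM in CTL_6h and 106, 54.5 and 174 FPKM in PPA_6h (log2 difference -0.99, SE 0.38, adjusted p = 0.270), with overlap.

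Chaperone genes leaned the other way. In the heat shock list 19 of 24 members were positive (median 0.26; 0.17 without CTL_6h_2, 0.46 without CTL_6h_3 and 0.15 without PPA_6h_2), against 46.0% of all rows, and 0 were above the controls without overlap. In the members named next, CTL_6h_3 lay among or above some PPA libraries. Hspa1a, the inducible Hsp70, read 30.8, 118 and 16.3 FPKM in CTL_6h and 275, 375 and 77.2 FPKM in PPA_6h (log2 difference 2.32, SE 0.63, adjusted p = 0.175) and its near-identical neighbour Hspa1b 239.6, 559 and 180.0 FPKM in CTL_6h and 685, 847 and 395 FPKM in PPA_6h, so reads may be split between them. Dnaja4, an Hsp40, read 7.04, 29.2 and 3.80 FPKM in CTL_6h and 33.9, 50.2 and 15.4 FPKM in PPA_6h (log2 difference 1.55, SE 0.54, adjusted p = 0.237), Bag3, an Hsp70 co-chaperone, 133, 293 and 121 FPKM in CTL_6h and 321, 323 and 204 FPKM in PPA_6h (log2 difference 0.72, SE 0.29, adjusted p = 0.287), and Hspd1, the mitochondrial Hsp60, 211, 328 and 187 FPKM in CTL_6h and 319.6, 457 and 291 FPKM in PPA_6h. Hspd1 had a log2 difference of 0.57 (SE 0.20, adjusted p = 0.243). In each, CTL_6h_2 and CTL_6h_4 were the lowest libraries and PPA_6h_2 the highest. Hsp90ab1 differed by 0.05 (SE 0.12, adjusted p = 0.881) and the constitutive Hsc70 gene Hspa8 by -0.10 (SE 0.13, adjusted p = 0.751). Without CTL_6h_3, 7 members were called higher, against 3.17% of all rows, and without PPA_6h_5, 1 was, against 1.17%. Leaving out CTL_6h_2, CTL_6h_4 or PPA_6h_1 instead, 0 members were called. Genes of the unfolded protein response, which is driven by stress of the endoplasmic reticulum, were positive in 17 of 22 members (median 0.20; 0.10 without CTL_6h_2 and 0.34 without CTL_6h_3), and their 0 h median was 0.24. Sdf2l1 read 13.7, 38.3 and 14.4 FPKM in CTL_6h and 79.4, 144 and 28.7 FPKM in PPA_6h (log2 difference 1.76, SE 0.50, adjusted p = 0.181), Manf 32.0, 57.4 and 37.7 FPKM in CTL_6h and 84.1, 109 and 51.9 FPKM in PPA_6h (log2 difference 0.91, SE 0.26, adjusted p = 0.181) and Creld2 23.9, 52.2 and 31.5 FPKM in CTL_6h and 60.8, 106 and 40.9 FPKM in PPA_6h (log2 difference 0.90, SE 0.35, adjusted p = 0.274); all are chaperone-like proteins of the reticulum, and in all CTL_6h_3 lay above PPA_6h_5. Syvn1, a ubiquitin ligase of the same compartment, read 18.7, 24.2 and 24.5 FPKM in CTL_6h and 36.6, 39.0 and 24.6 FPKM in PPA_6h (log2 difference 0.53, SE 0.21, adjusted p = 0.282), with a narrow gap and no overlap. Syvn1 was the only member of the list above the controls without overlap (4.55%, under the 6.56% of all rows), and 0 lay below. In the integrated stress response 27 tested members had a median log2 difference of 0.08 (0.01 without CTL_6h_2, 0.15 without CTL_6h_3, -0.01 without CTL_6h_4, 0.01 without PPA_6h_1, 0.20 without PPA_6h_2 and -0.08 without PPA_6h_5). Without overlap, 1 (3.7%) lay above and 1 (3.7%) below the controls, against 6.56% and 8.58% of all rows. Both Fgf21 and Asns overlapped between the groups. Fgf21, a fasting hormone, read 109.9, 62.2 and 65.2 FPKM in CTL_6h and 10.015, 12.1 and 78.4 FPKM in PPA_6h (log2 difference -1.78, SE 0.60, adjusted p = 0.220), and Asns, asparagine synthetase, 6.74, 14.8 and 5.40 FPKM in CTL_6h and 18.4, 8.66 and 33.5 FPKM in PPA_6h (log2 difference 1.01, SE 0.39, adjusted p = 0.271), with PPA_6h_5 the highest PPA library of both. Ddit3, the stress factor CHOP, differed by 0.29 (SE 0.31, adjusted p = 0.690), and Hspa5, the reticulum's main Hsp70, by 0.09 (SE 0.18, adjusted p = 0.850).

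Promoters of 4 of these stress genes are shown, all of them genes with a match to a textbook response element close to the gene start. The windows are RefSeq's on GRCm38.p6, from 250 bases before to 50 after each start, 5′ to 3′, with the matched letters in capitals. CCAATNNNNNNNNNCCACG, the element of endoplasmic reticulum stress, on either strand, was found in 39 of 32851 promoters (0.119%), in 0.137% of genes and in 9 of 19 genes of the unfolded protein list with a promoter in the table (19 of 22). GAANNTTCNNGAA, the heat shock element, was found in 198 promoters (0.603%), in 0.662% of genes and in 4 of 19 genes of the heat shock list. Other genes of each list with a promoter had no match to that list's element. Hspa1a, Dnaja4, Bag3, Sdf2l1 and Manf are not among the genes with a match, whereas Hspa5, with a small difference, is. Whether a match goes with a higher level was not tested. The first pair shown carries the endoplasmic element and the second pair the heat shock element, in overlapping copies that run together in the capitals. Hspd1 has 2 listed promoters, and the one that is not printed had no match.
Creld2 (chr15:88819396-88819695, plus strand): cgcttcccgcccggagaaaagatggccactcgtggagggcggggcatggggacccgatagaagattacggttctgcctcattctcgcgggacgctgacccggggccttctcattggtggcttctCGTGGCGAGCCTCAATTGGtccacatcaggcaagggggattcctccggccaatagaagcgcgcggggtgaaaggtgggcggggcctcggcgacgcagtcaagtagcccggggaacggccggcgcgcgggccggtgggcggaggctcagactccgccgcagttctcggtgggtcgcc
Syvn1 (chr19:6046326-6046625, plus strand): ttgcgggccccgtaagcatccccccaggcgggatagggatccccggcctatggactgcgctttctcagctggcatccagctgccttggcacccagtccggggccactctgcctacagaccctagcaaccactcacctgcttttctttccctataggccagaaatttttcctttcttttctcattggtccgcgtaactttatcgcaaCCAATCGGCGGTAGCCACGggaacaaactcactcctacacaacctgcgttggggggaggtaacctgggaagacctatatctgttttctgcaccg
Hspd1 (chr1:55087883-55088182, minus strand): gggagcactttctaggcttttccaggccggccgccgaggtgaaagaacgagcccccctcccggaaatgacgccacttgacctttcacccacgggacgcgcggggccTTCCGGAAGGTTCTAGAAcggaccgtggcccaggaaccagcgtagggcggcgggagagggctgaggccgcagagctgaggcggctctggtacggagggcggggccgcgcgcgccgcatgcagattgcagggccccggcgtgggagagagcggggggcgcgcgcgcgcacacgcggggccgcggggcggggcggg
Chordc1 (chr9:18292017-18292316, plus strand): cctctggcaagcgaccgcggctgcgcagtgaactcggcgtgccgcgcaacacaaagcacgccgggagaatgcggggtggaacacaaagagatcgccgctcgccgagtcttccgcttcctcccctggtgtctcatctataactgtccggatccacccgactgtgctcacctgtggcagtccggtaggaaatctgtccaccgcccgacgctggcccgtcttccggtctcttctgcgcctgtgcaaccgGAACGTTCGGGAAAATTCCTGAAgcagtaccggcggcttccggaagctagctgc
A match is a run of letters and not a shown binding site. Chordc1, an Hsp90 co-chaperone, read 10.5, 19.9 and 7.82 FPKM in CTL_6h and 20.6, 24.8 and 14.4 FPKM in PPA_6h (log2 difference 0.67, SE 0.27, adjusted p = 0.282), with PPA_6h_5 below CTL_6h_3. The DR1 element of nuclear receptors, AGGNCANAGGNCA, was found in 1 of 45 genes of the fatty acid oxidation list, Fabp1, against 0.451% of all genes and 0.381% of all promoters. None of the 3 elements was found in the 3 listed promoters of Slc27a1 or the 2 of Rnaset2a, and Fst and Serpina9 are named here without a sequence.

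Acute phase proteins had a median of 0.15 (0.08 without CTL_6h_2 and 0.10 without PPA_6h_5) over 41 members. Apcs had the smallest p of the list. Serpina1e, an alpha-1-antitrypsin, read 5954, 7419.9 and 6454 FPKM in CTL_6h and 10301, 7475 and 9900.0 FPKM in PPA_6h (log2 difference 0.47, SE 0.19, adjusted p = 0.280), without overlap but with PPA_6h_2 next to CTL_6h_3. Serpina1e has close copies in its gene cluster. Lbp, the lipopolysaccharide-binding protein, differed by -0.36 (SE 0.11, adjusted p = 0.208), and Steap4, a metalloreductase, by 0.85 (SE 0.23, adjusted p = 0.175). The median was -0.15 (-0.38 without CTL_6h_3, 0.00396 without CTL_6h_4 and -0.04 without PPA_6h_1) for 20 cytokines, chemokines and adhesion genes. It was -0.14 (-0.23 without CTL_6h_3) for 24 NF-kappaB and STAT3 feedback genes. Cxcl1, a neutrophil attractant, read 91.4, 52.9 and 90.3 FPKM in CTL_6h and 31.9, 28.1 and 103 FPKM in PPA_6h and Cxcl10, an interferon-induced chemokine, 43.4, 25.2 and 48.1 FPKM in CTL_6h and 9.51, 5.94 and 53.1 FPKM in PPA_6h; in both PPA_6h_5 was the highest library. The adhesion molecules lay on opposite sides, Icam1 at 5.76, 8.60 and 5.12 FPKM in CTL_6h and 10.3, 9.28 and 9.06 FPKM in PPA_6h (log2 difference 0.52, SE 0.17, adjusted p = 0.215) and Vcam1 at 3.42, 2.81 and 4.15 FPKM in CTL_6h and 2.25, 1.39 and 2.53 FPKM in PPA_6h. Vcam1 had a log2 difference of -0.56 (SE 0.17, adjusted p = 0.195). Cd14, the endotoxin co-receptor, differed by -1.11 (SE 0.41, adjusted p = 0.258) and Nfkbia, the NF-kappaB inhibitor, by -0.66 (SE 0.27, adjusted p = 0.287). For interferon and antigen presentation genes the median was -0.32 (-0.20 without CTL_6h_4 and -0.19 without PPA_6h_1) over 32 members, 28 of them (87.5%) negative. H2-K1, a classical class I chain, read 1323, 1168 and 1311 FPKM in CTL_6h and 1041, 932 and 1036 FPKM in PPA_6h (log2 difference -0.34, SE 0.11, adjusted p = 0.223). H2-D1, another such chain, read 651, 574 and 672 FPKM in CTL_6h and 526, 464 and 510.1 FPKM in PPA_6h (log2 difference -0.34, SE 0.11, adjusted p = 0.220). The groups of both were apart. Bst2, an antiviral tether, differed by -0.45 (SE 0.16, adjusted p = 0.237). In secreted hepatokines and growth genes, 28 tested members had a median log2 difference of -0.23 (-0.12 without CTL_6h_4). Without overlap, 2 (7.14%) lay above and 3 (10.7%) below the controls, near the 6.56% and 8.58% of all rows. Igfbp1, which binds insulin-like growth factors and is made in fasting, read 1021, 395 and 1168 FPKM in CTL_6h and 165, 59.0 and 537 FPKM in PPA_6h. Igfbp1 had a log2 difference of -2.16 (SE 0.66, adjusted p = 0.199). Its groups overlapped through CTL_6h_3 and PPA_6h_5. Sex-dimorphic genes had a median log2 difference of 0.11 at 6 h and 0.27 at 0 h over 27 tested members. At 6 h, 5 (18.5%) lay above the controls without overlap and 1 (3.7%) below, against 6.56% and 8.58% of all rows. Those above included Moxd1 and Hsd3b5. Hsd3b5, a male-biased steroid reductase, read 5.09, 2.87 and 5.83 FPKM in CTL_6h and 10.2, 31.5 and 12.4 FPKM in PPA_6h. Its log2 difference was 1.64 (SE 0.43, adjusted p = 0.168). The member below was Cyp4a12b (log2 difference -0.61, SE 0.18, adjusted p = 0.194). All libraries expressed the Y-linked Ddx3y, at 8.02 to 11.9 FPKM at 6 h.

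The respiratory chain list was negative in 37 of 38 members (97.4%), against 54.0% of all rows, with a median of -0.23. In 12 of them (31.6%) all PPA libraries lay below all controls, against 8.58% of all rows. Cox6a1, a cytochrome oxidase subunit, read 2146, 1699 and 2293 FPKM in CTL_6h and 1569, 1344 and 1639 FPKM in PPA_6h. Cox6a1 had a log2 difference of -0.42 (SE 0.16, adjusted p = 0.267). Short transcripts such as Cox6a1 also varied with library: a trend with transcript length stood at 0.218 and 0.0989 log2 units at the short end (shortest 10% of genes) in CTL_6h_4 and CTL_6h_2 and at -0.0541 to 0.0609 in the other 6 h libraries, and with it removed the list median was -0.16. Proteasome genes had a median of -0.12 (-0.20 without PPA_6h_5) over 22 members, with Uba1 and Psmd1 at -0.23 and -0.31, and autophagy and lysosome genes of -0.16 (-0.10 without CTL_6h_4) over 27 members, with Ctsd, cathepsin D, at -0.32 (adjusted p = 0.244) and Map1lc3a, an autophagosome marker, at -0.52 (adjusted p = 0.247). Hepatocyte transcription factors had a median of -0.05 (-0.08 without CTL_6h_2, 0.02 without CTL_6h_3, -0.10 without CTL_6h_4, -0.10 without PPA_6h_2 and -0.02 without PPA_6h_5) over 32 members; the oestrogen-related receptor Esrra and the thyroid receptor Thra, both without overlap, differed by -0.40 and -0.46, and Klf11 by -0.88 (adjusted p = 0.186, 0.203 and 0.181). Glucocorticoid and clock genes had a median of -0.11 (-0.04 without CTL_6h_2, -0.06 without PPA_6h_1 and -0.04 without PPA_6h_2) over 26 members, with the kinase Sgk1 at -0.95 (SE 0.29, adjusted p = 0.207) and the repressor Bhlhe40 at -0.97 (SE 0.31, adjusted p = 0.213). Only 9 of 22 cell cycle genes reached the filter. Ccnd1, cyclin D1, which starts the cycle, read 2.1035, 4.49 and 2.49 FPKM in CTL_6h and 8.30, 18.9 and 5.68 FPKM in PPA_6h (log2 difference 1.46, SE 0.35, adjusted p = 0.135), without overlap, and Plk3, a stress-activated polo kinase, 365, 248 and 338 FPKM in CTL_6h and 121, 54.1 and 287 FPKM in PPA_6h (log2 difference -1.33, SE 0.46, adjusted p = 0.226), with overlap.

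**Figure D5:**
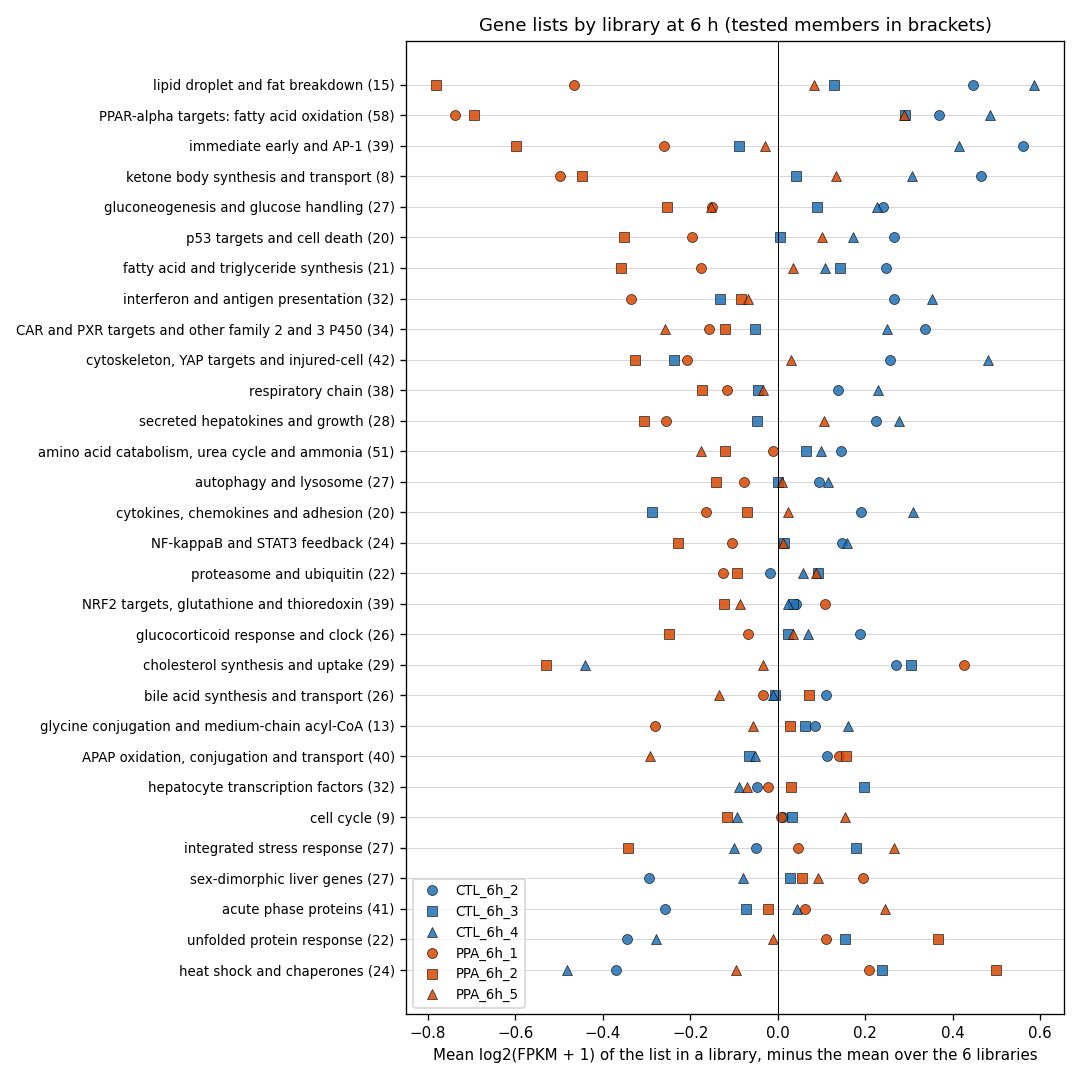
Mean log2(FPKM + 1) of each of the 30 function lists in each library taken at 6 h, minus the mean over the 6 libraries, with tested members in brackets. Blue CTL_6h_2 and CTL_6h_4 and orange PPA_6h_1 and PPA_6h_2 lie on opposite sides in the fatty acid oxidation, lipid droplet and immediate early lists, while the CTL_6h_3 squares and PPA_6h_5 triangles lie nearer to each other.

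Markers of other cells were read in the same libraries, and their part in the differences was not tested. In whole tissue, fewer cells of a type and less RNA per cell cannot be told apart. Of 13 neutrophil markers, 12 were in the table, Camp was at 0 in all 6 h libraries and 8 did not reach 1 FPKM. The sum ranged from 12.1 to 55.5 FPKM in CTL_6h and from 17.8 to 25.0 FPKM in PPA_6h, with the lowest control again CTL_6h_3. S100a8 read 20.0, 5.07 and 24.5 FPKM in CTL_6h and 7.55, 7.28 and 8.14 FPKM in PPA_6h. Kupffer cell and macrophage markers (16 of 16 in the table) summed to 229.6 to 347 FPKM in CTL_6h and 225 to 326 FPKM in PPA_6h, and sinusoidal endothelial markers (18 of 18) to 107 to 153 and 113 to 136 FPKM. The ranges overlapped for each of these cell types. Monocyte markers (8 of 8) summed to 227 to 361 and 242 to 262 FPKM, nearly all of it F10, which hepatocytes make. T and NK cell markers (11 of 13) summed to 1.64 to 5.21 and 1.88 to 4.63 FPKM. Stellate and fibroblast markers (15 of 15) summed to 107 to 157 and 111 to 119 FPKM, cholangiocyte markers (11 of 11) to 24.5 to 58.0 and 30.3 to 47.0 FPKM, and blood cell markers (11 of 12) to 264 to 746 and 309 to 497 FPKM. Fat and pancreas markers (15 of 15, 7 of them at 0) summed to 8.24 to 15.9 and 10.03 to 11.3 FPKM, and mesothelial and gallbladder markers (8 of 8) to 0.659 to 2.90 and 1.08 to 4.54 FPKM. Pericentral hepatocyte genes (22 of 22) summed to 2681 to 4347 FPKM in CTL_6h and 2453 to 2956 FPKM in PPA_6h, and periportal genes (18 of 18) to 9209 to 10364 and 7365 to 9706 FPKM, with median log2 differences of -0.10 and -0.21.

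Whether the PPA difference at 6 h was that already present at 0 h was tested by the interaction. No row was called by limma (0%), with 386 rows more positive and 531 more negative at 6 h at an unadjusted p under 0.05. The smallest interaction p belonged to H2-Q8, a class I gene, at -2.99 (SE 0.39, adjusted p = 0.0537). It read 0.00156, 0.00154 and 0.00160 FPKM in CTL_0h and 9.81, 7.04 and 7.94 FPKM in PPA_0h and, at 6 h, 3.89, 9.31 and 4.72 FPKM in CTL_6h and 9.57, 6.99 and 4.22 FPKM in PPA_6h. The neighbouring H2-Q6 lay the other way at 0 h, with means of 8.48 FPKM in CTL_0h and 0.00282 FPKM in PPA_0h, and since genes of this cluster are nearly identical, reads may have been split among them and both values are uncertain. Next came Slc27a1, Calcoco1 (interaction -1.23, SE 0.19, adjusted p = 0.105), Serpina9 (interaction 1.22, SE 0.20, adjusted p = 0.109) and Apcs (interaction 1.57, SE 0.26, adjusted p = 0.109). Serpina9 was at 0 in every 0 h library, so its interaction equals its 6 h difference by construction. A PPA difference of Serpina9 at 0 h could not be seen. Calcoco1 read 10.005, 13.6 and 11.8 FPKM in CTL_0h and 15.029, 18.5 and 16.6 FPKM in PPA_0h, so PPA libraries were higher at 0 h, and 9.01, 9.0013 and 8.38 FPKM in CTL_6h and 5.07, 4.04 and 5.45 FPKM in PPA_6h at 6 h, where they were lower. Across all 10084 rows the PPA differences at 0 h and 6 h, which share no library, had a Pearson correlation of 0.13 and a Spearman correlation of 0.13, and genes are not independent replicates. The fatty acid oxidation list had a median of -0.19 at 0 h against -0.60 at 6 h, and its median interaction was -0.44.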

How the data were processed

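Liver RNA of 12 mouse samples in 4 groups of 3 had been sequenced, and the authors deposited FPKM values per gene in 1 table. The submitters' processing notes name HISAT2 2.1.0, SAMtools 0.1.18-r580, Cufflinks, Cuffdiff 2.1.1 and the build mm10; the annotation and what each tool did were not stated in those sources. FPKM carry no counts, so no count test was run, and FPKM is relative to each library's total.

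Columns were matched to samples by their labels. Rows with at least 1 FPKM in at least 3 of 12 libraries were tested on log2(FPKM + 1) with limma 3.58.1 in R 4.3.3 (4 group means over 12 libraries, empirical Bayes with a mean trend, Benjamini-Hochberg over all 10084 rows, threshold 0.05). Fold changes are on that scale and understate low genes. Each group had n = 3, values are given per library, and errors are the SE of the fit. Named genes were every called gene, the 12 per direction with the smallest p, non-overlapping groups and a mean of at least 5 FPKM, list members with the smallest p (4) or highest level (2), fewer where space was short, and 10 genes of APAP injury. The members and lists were chosen with earlier results of these data known. Rnaset2b, Ppara, Hspa1b, H2-Q6, H2-Q8, Zfp91Cntf, Bag3, Cyp4a10, Gdf15, Hbegf, Igfbp1, Plaur, Plin5 and Slc25a20 fall outside this rule and were chosen after their values were seen. A few genes that the rule names are not reported here. Scripts were tested on simulated data. Alternatives were other pseudocounts, filters, scalings, fits and left-out libraries. Promoters are RefSeq's, on GRCm38.p6, and gene coordinates are on GRCm38. Tables and figures used Python 3.11.15, pandas 2.3.3 and matplotlib 3.10.9.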

Additional observations from a re-analysis of the deposited data

How the results depend on the processing

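The number of genes called higher and lower (1 and 3) was 0 and 2 with a pseudocount of 0.1, 8 and 13 with 5, 2 and 3 without a filter, 4 and 4 with a filter of 5 FPKM, 3 and 3 under median ratio scaling, 5 and 5 under quantile normalization, 6 and 8 without short RNA rows, 3 and 4 under robust moderation, 1558 and 2078 with sample quality weights and 0 and 0 from the 6 h libraries alone. Removing a trend with transcript length, an alternative chosen after seeing the data, gave 3 and 4. With 1 library left out, 1 to 320 genes were higher, 1 to 470 lower and 0 to 40 called for the interaction. The interaction count was 1 with a pseudocount of 0.1, without a filter, without short RNA rows and under robust moderation, and 468 with sample quality weights, whose weights ran from 0.318 for CTL_6h_3 to 6.36 for CTL_6h_2. The replicate numbers did not pair the libraries: over 9 same-numbered pairs the deviations correlated at -0.208 to 0.0907, and CTL_6h and PPA_6h share only the number 2. With the replicate block, 0 genes were higher and 1 lower, none of the 4 reported genes passed (adjusted p = 0.0903 to 0.111), and the list medians of gluconeogenesis and of hepatocyte transcription factors were -0.43 and 0.0882.

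Of the 30 list medians, 21 kept 1 sign in all settings. Quantile normalization moved fatty acid synthesis to -0.17, gluconeogenesis to -0.22, amino acid catabolism to -0.0886, NRF2 targets to -0.00342, hepatocyte transcription factors to 0.0688, the respiratory chain to -0.0284, the proteasome to 0.0411 and autophagy to -0.0696. Sample quality weights moved ketone body genes to -0.71, bile acid genes to -0.30, glycine conjugation to -0.21 and NF-kappaB feedback to -0.26, the last at -0.24 with the filter of 5 FPKM. With 1 library left out the medians ran from -0.18 to 0.0217 for bile acids, -0.11 to 0.0959 for the cell cycle, -0.43 to -0.32 for gluconeogenesis, -0.33 to -0.16 for amino acids and -0.50 to -0.21 for CAR and PXR targets.

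Over 139 named genes, 2419 values kept direction and side of the threshold, 308 passed it, 16 no longer did and 24 turned sign, all in genes that were not called. The Atf3 log2 change was -0.0307, against 0.18 with quantile normalization and 0.0178 with the length trend removed and -0.11 to 0.0628 with 1 library left out. The Ddit3 log2 change was 0.29, against -0.0272 to 0.69 with 1 library left out. The H2-Q8 log2 change was 0.20, against -0.0326 to 0.53 with 1 library left out. The Hspa5 log2 change was 0.0916, against -0.021 to 0.28 with 1 library left out. The Hspa8 log2 change was -0.0969, against 0.14 with quantile normalization. The Jun log2 change was -0.0453, against 0.19 with quantile normalization and 0.00664 with sample quality weights and -0.18 to 0.14 with 1 library left out. The Mgst1 log2 change was -0.13, against 0.0917 with quantile normalization. The Nqo1 log2 change was 0.19, against -0.0295 to 0.43 with 1 library left out. The Ppara log2 change was 0.11, against -0.0687 to 0.27 with 1 library left out. The Rnaset2b log2 change was -0.0133, against 0.00109 with median ratio scaling and 0.0882 with quantile normalization and 0.0151 with the length trend removed and -0.15 to 0.10 with 1 library left out. The cause of these changes was not tested. With 3 libraries a group, an exact permutation test of a single gene cannot go below p = 0.1. Depth was estimated and not given, so no counting interval was set.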
